A study of Homo sapiens with 8 samples.

Results

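The genes described here encode the proteins of the cytosolic ribosome in MDA231 cells, a triple-negative breast cancer line (MDA-MB-231). They were chosen by name. All protein-coding genes whose symbol is RPL or RPS with a number (and an A, X, Y or L suffix where there is one) were taken, with RPLP0, RPLP1, RPLP2 and RPSA, while kinases of the RPS6K family and pseudogenes were left out. This gave 87 genes of the 58051 in the count tables, 53 of the large subunit and 34 of the small subunit, and all 87 were matched by Ensembl identifier. RNA was sequenced in 8 samples: unmodified parental cells (2 samples), the SDHB knockout (SDHBKO, 3 samples) and the SDHB knockout with SDHA knockdown (SDHBKOSDHAlow, 3 samples). SDHB and SDHA are subunits of mitochondrial complex II, succinate dehydrogenase. SDHB was disrupted with a TALEN nuclease pair aimed at exon 1, and SDHA was lowered by stable expression of a short hairpin RNA. Both modified groups therefore carry the SDHB knockout, and the sources used here do not say whether the sublines are single clones. The SDHBKOSDHAlow samples are titled SH1, which the labels do not explain. No treatment was applied before collection at 70% confluency, but the knockout cells had been selected with hygromycin and the hairpin cells also with puromycin when the sublines were made. Selection and genotype cannot be told apart here. The comparisons ask how loss of SDHB, and further loss of SDHA, changed the mRNA of each ribosomal protein.

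A cytosolic ribosome has a small subunit, which reads the mRNA, and a large subunit, which joins amino acids, and each holds ribosomal RNA and 1 copy of most of its proteins. Cells make these proteins in matched amounts, and surplus copies of the proteins are degraded. In vertebrates nearly all of their mRNAs begin with a C followed by a run of pyrimidines, the 5′ terminal oligopyrimidine (TOP) tract, through which the kinase mTOR and the RNA-binding protein LARP1 set how much of them is translated. Translation is not measured by mRNA counts such as those used here.

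The TOP tract could be read for 70 of the 87 genes from the RefSeq promoter table (GRCh38.p14), which holds 250 bases before and 50 bases after each start site. A C at the start base followed by at least 4 pyrimidines (C or T) was found in 48 of these 70 genes (68.6%), against 1404 of all 27305 genes of that table (5.14%). Of the 15275 other protein-coding genes in it, 922 (6.04%) had such a start. The windows of 6 genes that passed the test in SDHBKO cells and are in that table are printed here to show what their starts look like, together with RPL36A and its copy RPL36AL, which differ at the start. Each has 40 bases before and 20 bases from the start site, 5′ to 3′, and the capitals mark the pyrimidine tract as far as the window reaches.
RPS10: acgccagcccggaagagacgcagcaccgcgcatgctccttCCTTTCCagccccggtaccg
RPL27A: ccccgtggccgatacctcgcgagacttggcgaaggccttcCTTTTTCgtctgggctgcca
RPLP0: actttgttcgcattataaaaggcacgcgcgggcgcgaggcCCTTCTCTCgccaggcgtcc
RPL39: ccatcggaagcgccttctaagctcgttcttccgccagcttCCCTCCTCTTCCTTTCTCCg
RPL37A: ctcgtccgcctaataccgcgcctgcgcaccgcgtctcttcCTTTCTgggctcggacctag
RPS4X: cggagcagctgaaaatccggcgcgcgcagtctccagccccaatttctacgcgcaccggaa
RPL36A: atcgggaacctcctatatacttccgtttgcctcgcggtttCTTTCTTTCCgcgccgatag
RPL36AL: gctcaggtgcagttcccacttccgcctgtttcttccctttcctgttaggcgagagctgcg
They lie at chr6:34426050-34426109 on the minus strand (RPS10), chr11:8682752-8682811 on the plus strand (RPL27A), chr12:120201092-120201151 on the minus strand (RPLP0), chrX:119791611-119791670 on the minus strand (RPL39), chr2:216498804-216498863 on the plus strand (RPL37A), chrX:72277229-72277288 on the minus strand (RPS4X), chrX:101390971-101391030 on the plus strand (RPL36A) and chr14:49620607-49620666 on the minus strand (RPL36AL). RPS4X and RPL36AL have no such tract at the annotated start base. A tract that began within 10 bases of the start was found in 60 of the 70 genes (85.7%) and in 38.4% of all genes. The letters TATAA, 40 to 16 bases before the start and on the strand of the gene, were present in 9 of the 70 genes (12.9%) and in 4.94% of all genes. CCGGAAG on either strand of the 300 bases was present in 24 (34.3%) and in 12.2%. Of the other protein-coding genes, 41.2% had a tract within 10 bases, 6.82% had TATAA and 16.6% had CCGGAAG. The search within 10 bases includes tracts at the start, and CCGGAAG read on the other strand (CTTCCGG) can share letters with a tract. These are matches of letters and not sites of binding.

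The libraries were QuantSeq 3′ mRNA-seq, which reads 1 tag near the end of each polyadenylated transcript, so that counts do not scale with transcript length and were not divided by it. Between 773042 and 1427141 reads per sample were counted on genes, and 3 counts correspond to 2.22 to 4.06 counts per 1000000 reads on genes (CPM, here scaled by the TMM factors of edgeR). Genes with a mean normalized count above 5 were tested, 7550 in all, including 82 of the 87 ribosomal protein genes (50 of the large and 32 of the small subunit). A gene was called when its adjusted p (edgeR's quasi-likelihood test, Benjamini-Hochberg over all 7550 genes) was below 0.1. SDHA had 64 and 69 counts in parental, 108 to 140 in SDHBKO and 7 to 17 in SDHBKOSDHAlow cells (-3.46, SE 0.28, adjusted p = 1.16e-07 on the log2 scale against SDHBKO, edgeR). SDHB had 0 to 4 counts in every sample, parental included, and its 3′ tags lie outside the exon targeted, so they do not check the knockout. Of the markers listed for this line, VIM, KRT18, LGALS1 and AXL were abundant in every sample, and ESR1 and PGR had 0 counts. Others went the other way. S100A4, SPARC and FN1, listed as present, had only 3 to 13, 10 to 32 and 4 to 48 counts. GATA3, listed as absent or near 0, had 8 to 20 counts. The labels name the samples biological replicates without saying how they were grown, so p-values measure the spread between these samples. Among them, SDHBKOSDHAlow replicate 2 was the deepest library and stood apart from the other two of its group, with 11 tested ribosomal protein genes over 1.5-fold from both. SDHBKO replicate 1 was the highest of its group for 55 of 82 genes and replicate 2 the lowest for 52.

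Ribosomal protein genes took a like share of all counts in the 3 groups. The share was 17.5 and 17.9% in parental cells, 19, 15.7 and 16.8% in SDHBKO cells and 17.4, 17.7 and 17.2% in SDHBKOSDHAlow cells. The SDHBKO samples lay on both sides of the parental samples. A share is relative to the other genes of a sample, so it does not give the amount of ribosomal protein mRNA per cell. The means were 17.7% ± 0.283 (SD, n = 2), 17.2% ± 1.68 (SD, n = 3) and 17.4% ± 0.252 (SD, n = 3). Large subunit genes held 9.63 and 9.86% of counts in parental cells, 9.84, 8.36 and 8.43% in SDHBKO and 9.46, 8.63 and 9.69% in SDHBKOSDHAlow cells. Small subunit genes held 7.83 and 7.99%, then 9.12, 7.31 and 8.38%, then 7.94, 9.08 and 7.47%. The ratio of small to large subunit counts was 0.813 and 0.811 in parental cells, which was below all SDHBKO values (0.927, 0.875 and 0.994). It leans on 1 large subunit gene. RPL37A alone held 18280 and 18159 counts in parental and 11571, 12829 and 13178 in SDHBKO cells. The ratio was not computed without RPL37A, so it is not read as a difference between the subunits. In SDHBKOSDHAlow cells the ratio ranged from 0.771 to 1.05, and replicate 2 held the high end. Reads that mapped to more than 1 place, which STAR leaves out of its gene counts, made up 10.2 and 10.9% of reads in parental, 16.1, 14.7 and 14.5% in SDHBKO and 12.3, 9.72 and 11.3% in SDHBKOSDHAlow cells. Ribosomal protein genes have many processed pseudogenes whose reads can fall in this class. The multimapping share was higher in SDHBKO cells than in every other sample, and its part in the differences between genes was not tested.

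**Figure D1:**
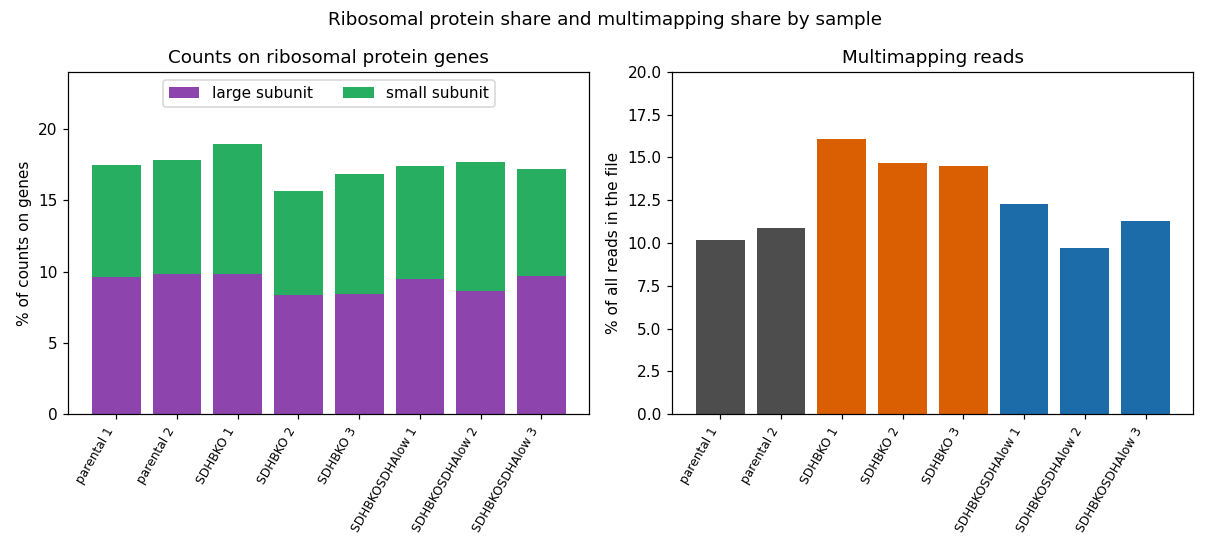
Percent of counts on genes held by large (purple) and small (green) subunit ribosomal protein genes in each sample (left) and multimapping reads as percent of all reads in each file (right). The summed share stays between 15.7 and 19%, while the 3 SDHBKO samples (orange) have the highest multimapping shares, 14.5 to 16.1%.

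Of the 87 genes, 5 were not tested. RPL3L and RPL10L, copies known from muscle and testis, and the Y-linked RPS4Y1 and RPS4Y2 had 0 counts in every sample, which allows up to 4.06 CPM (3 counts in SDHBKO replicate 1). RPL17, a large subunit protein near the exit tunnel, had 0 or 1 count in each sample. Its end is shared on the same strand with the read-through gene RPL17-C18orf32, which had 0 counts, so these counts do not give the level of RPL17 mRNA. The most counts were on RPL37A, RPS28, RPLP2, RPS14 and RPS19, and the fewest among tested genes on RPL36A, whose parental samples had 11 and 9 counts. The median spread between replicates was smaller for ribosomal protein genes than for all tested genes, which were not matched to them for counts. The median SD of log2 CPM was 0.08 in parental, 0.26 in SDHBKO and 0.21 in SDHBKOSDHAlow cells, against 0.21, 0.33 and 0.35 over all tested genes.

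**Figure D2:**
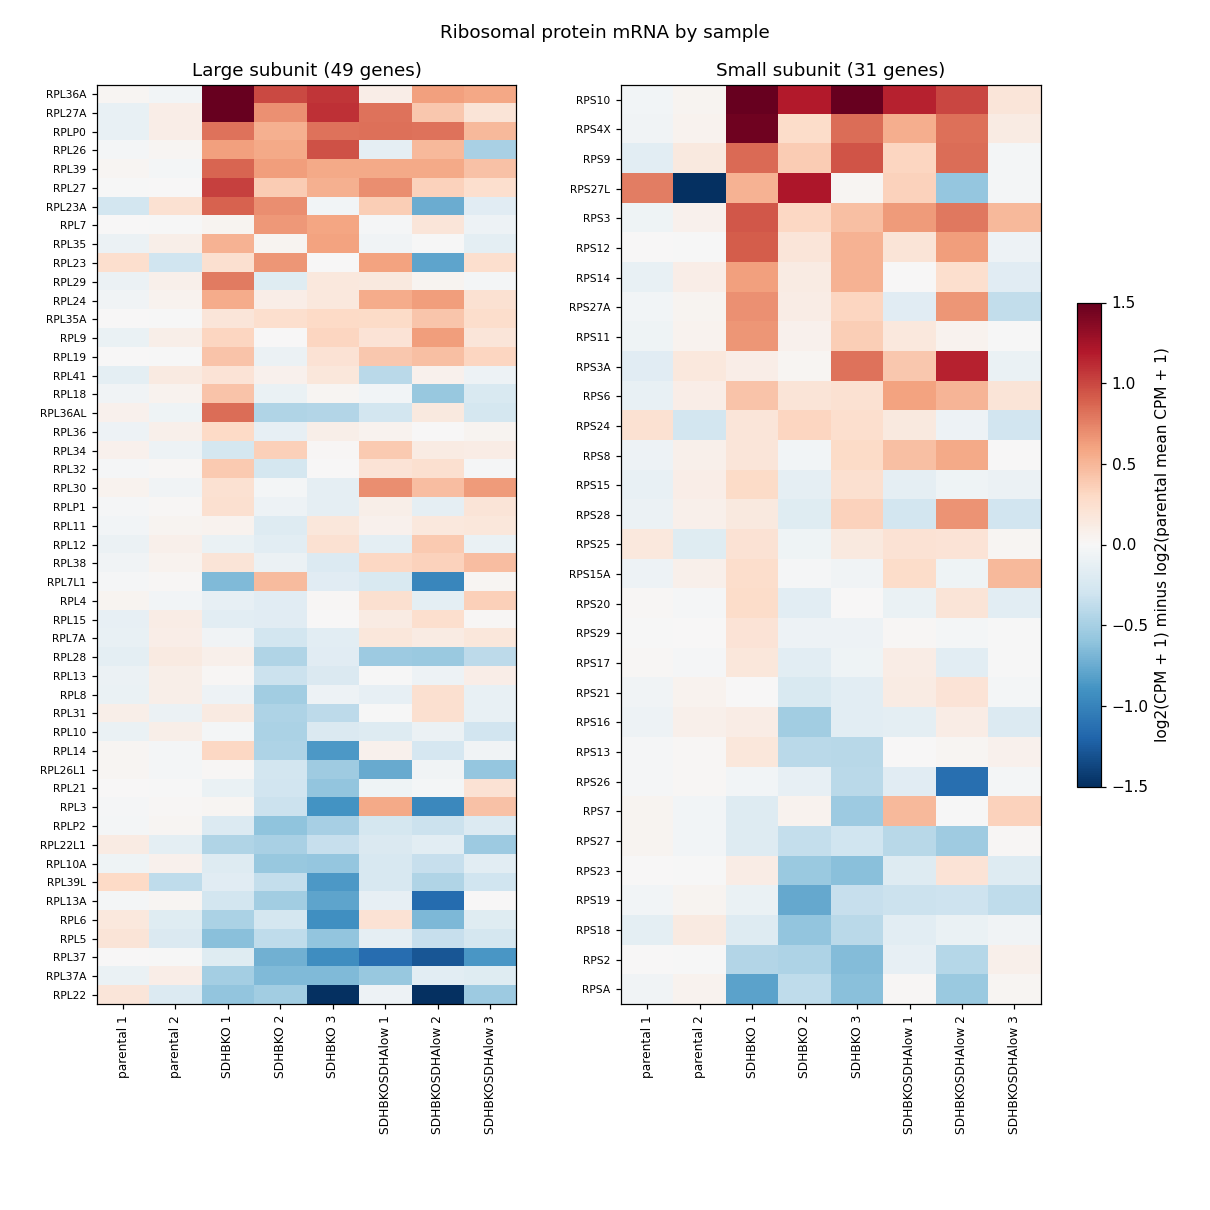
Difference of log2(CPM + 1) from the log2(mean parental CPM + 1) in each sample for 80 tested genes of the large (left) and small (right) subunit, sorted by the fold change of SDHBKO against parental, with colours capped at 1.5 in either direction. Most rows stay pale, while RPLP0 and RPL39 are red in the 6 modified samples. RPS10, RPL27A and RPL36A, the last of few counts and not called, are each darkest in an SDHBKO sample.

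In SDHBKO cells 5 ribosomal protein genes rose and 2 fell against parental cells while the median of the 82 genes stayed near 0. The genes that rose were RPS10, RPL27A, RPS4X, RPLP0 and RPL39, and RPL37A was among those that fell. Over all tested genes 3.14% were called higher and 2.4% lower, against 6.1 and 2.44% of the 82 members. The median log2 fold change was 0.02 for the 82 genes, with 43 above and 39 below 0, and 0 for all genes. Fold changes were spread less widely than elsewhere, with an SD of 0.48 against 0.68 over all genes, and their median SE was 0.21 against 0.39. Here too the genes were not matched for counts. Groups did not overlap upward for 18 members (19.3% of all genes did so) and downward for 17 (18.4% of all genes). At an unadjusted p below 0.05 by edgeR there were 11 higher and 9 lower members, and DESeq2 called 9 higher and 5 lower. Over all 7550 tested genes, 688 were higher and 630 lower at that p, and DESeq2 called 263 higher and 131 lower.

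RPS10 is a small subunit protein at the head of the subunit near the entry of the mRNA, and a gene of Diamond-Blackfan anaemia (ENSG00000124614, GRCh38 chr6:34417454-34426069, minus strand). It had 523 and 552 CPM in parental, 2259, 1224 and 1810.1 CPM in SDHBKO and 1196, 1074 and 612 CPM in SDHBKOSDHAlow. The lowest SDHBKO sample was above both parental samples by more than 2-fold, and the SDHBKOSDHAlow samples lay between the parental level and the lowest SDHBKO sample. The log2 fold change of SDHBKO against parental was 1.71 ± 0.28 (SE), adjusted p = 0.00381 by edgeR, a 3.27-fold difference. It was -0.88 (SE 0.24, adjusted p = 0.0905) for SDHBKOSDHAlow against SDHBKO, and 0.83 (SE 0.27, adjusted p = 0.187) against parental. The read-through gene RPS10-NUDT3, which shares its end, had 0 counts in every sample and NUDT3 had 21 to 57. Reads that fit both RPS10 and RPS10-NUDT3 are lost or split, so the RPS10 counts may hold only a part of its mRNA. The RPS10 pseudogene RPS10P3 had at most 4.06 CPM. Leaving out each sample in turn, the SDHBKO call was lost only without parental replicate 1 (adjusted p = 0.274 by edgeR, log2 fold changes of all 8 fits from 1.5 to 1.92).

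RPL27A, a large subunit protein (ENSG00000166441, GRCh38 chr11:8682788-8714759, plus strand), showed the same order of groups. It had 3234 and 3728 CPM in parental, 12546, 5594 and 7424 CPM in SDHBKO and 6109.6, 4611 and 3997 CPM in SDHBKOSDHAlow. SDHBKO replicate 1 was 1.5-fold or more above the other two, and the lowest SDHBKO sample still exceeded both parental samples. The log2 fold change was 1.29 ± 0.27 (SE), adjusted p = 0.0156 against parental (edgeR), 2.44-fold. SDHBKOSDHAlow cells differed from SDHBKO by -0.80 (SE 0.24, adjusted p = 0.143) and from parental cells by 0.49 (SE 0.27, adjusted p = 0.467). Its pseudogene RPL27AP5 gave 6.83 and 3.94 CPM in parental and 37.9, 16.4 and 10.7 CPM in SDHBKO cells, far fewer counts than the gene.

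RPS4X, a small subunit protein whose gene escapes X inactivation (ENSG00000198034, GRCh38 chrX:72255679-72277248, minus strand), had 2065 and 2209.9 CPM in parental, 5876, 2594 and 3827 CPM in SDHBKO and 3119.8, 3778 and 2320.1 CPM in SDHBKOSDHAlow. The SDHBKO samples spread more than 2-fold, and replicate 1 was the highest. Its log2 fold change against parental was 0.93 ± 0.27 (SE), adjusted p = 0.0694 (edgeR). Without SDHBKO replicate 1 it was 0.59 and the call was lost. SDHBKOSDHAlow cells had 0.52 (SE 0.27, adjusted p = 0.439) against parental.

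RPLP0, the base of the stalk that recruits elongation factors to the ribosome (ENSG00000089157, GRCh38 chr12:120196699-120201235, minus strand), had 2958 and 3418 CPM in parental, 5603, 4605 and 5603 CPM in SDHBKO and 5660.0, 5596 and 4484 CPM in SDHBKOSDHAlow. All 6 modified samples lay above both parental samples. The log2 fold change was 0.72 ± 0.20 (SE), adjusted p = 0.0589 in SDHBKO (edgeR) and 0.72 (SE 0.20, adjusted p = 0.133) in SDHBKOSDHAlow cells, with -0.01 (SE 0.18, adjusted p = 0.991) between the modified groups. Its pseudogene RPLP0P9 gave 271 to 476 CPM and was not called.

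RPL39, a short protein that lines the exit tunnel (ENSG00000198918, GRCh38 chrX:119786504-119791630, minus strand), had 609 and 584 CPM in parental, 1098, 922 and 882 CPM in SDHBKO and 886, 885 and 811 CPM in SDHBKOSDHAlow. Here too the 6 modified samples were above both parental samples. The log2 fold changes against parental were 0.69 ± 0.20 (SE), adjusted p = 0.068 in SDHBKO and 0.52 (SE 0.20, adjusted p = 0.267) in SDHBKOSDHAlow cells, by edgeR.

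RPL37A, a zinc-binding large subunit protein and the member with the most counts (ENSG00000197756, GRCh38 chr2:216498825-216579180, plus strand), had 20812 and 23829.7 CPM in parental, 15678, 14069 and 14073 CPM in SDHBKO and 14998, 19998 and 19644 CPM in SDHBKOSDHAlow. The SDHBKO samples were below both parental samples and of the SDHBKOSDHAlow samples replicate 1 lay within the range of SDHBKO and the others between the groups. The log2 fold change was -0.62 ± 0.19 (SE), adjusted p = 0.0923 in SDHBKO (edgeR), and this call was kept in only 1 of the 8 fits that left out a sample. Just outside the threshold were RPS9 (0.74, SE 0.24, adjusted p = 0.103), RPL27 (0.67, SE 0.22, adjusted p = 0.106) and RPL36A (1.35, SE 0.45, adjusted p = 0.106), and RPL26, RPS3 and RPSA followed with 0.72, 0.58 and -0.59.

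The calls in SDHBKO against parental depended on which samples were in the fit. Without parental replicate 1 or 2 only 1 parental sample was left, and most or all of the member calls were lost. The median log2 fold change of the members was -0.003 and 0.015 in these fits. Without SDHBKO replicate 1 or 3, the members called higher were RPS10 and RPL27A. RPL37A was lost in both of these fits, and RPL37 was added without replicate 1. Without SDHBKO replicate 2, RPL37A was lost, with RPL27, RPS3 and RPS9 added. Leaving out SDHBKOSDHAlow replicate 1 or 3 lost RPL37A, and RPS9 was added without replicate 3.

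**Figure D3:**
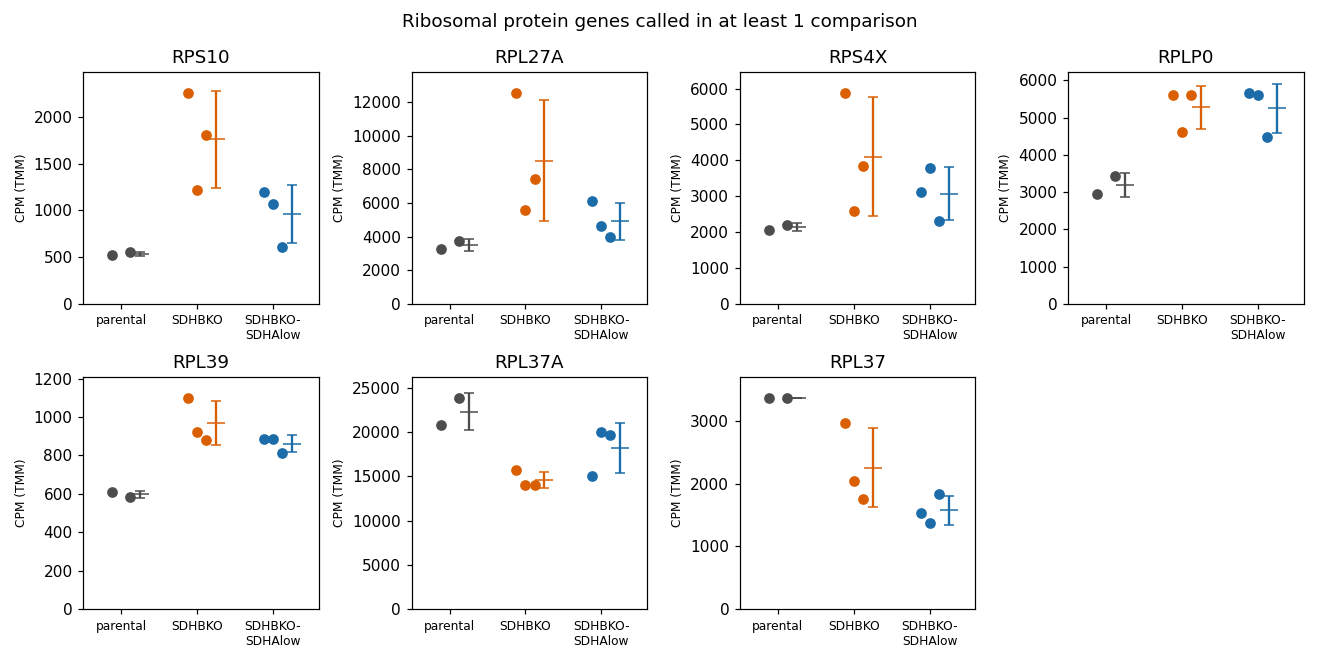
CPM (TMM-scaled) of 7 ribosomal protein genes called in at least 1 comparison, each point a sample, with the group mean and SD beside the points, and every axis starting at 0. RPS10 and RPL27A are highest in SDHBKO and lower in SDHBKOSDHAlow, RPLP0 and RPL39 stay high in both modified groups, and RPL37 stays low.

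Between SDHBKOSDHAlow and SDHBKO cells, RPS10 was the only member called, and it was lower. Among all tested genes 0.318% were called higher, against 0 of the 82 members, and 1.19% were called lower. For 0 called higher, 5 members had an unadjusted p below 0.05 by edgeR, as did 412 of all tested genes in that direction. DESeq2 called 33 of all tested genes higher and 1 member, RPL30. Its level in SDHBKOSDHAlow cells was 1534, 1305 and 1476 CPM, above 1112, 932 and 862 CPM in SDHBKO and 981 and 915 CPM in parental cells. The log2 fold change against SDHBKO was 0.57 (SE 0.18, adjusted p = 0.169) by edgeR. Groups did not overlap upward for 8 members and downward for 6, against 8.7 and 8.64% of all genes. RPL3 had 0.50, RPS7 0.50, RPSA 0.44 and RPL38 0.40, none of them called. At the other end were RPL36A at -0.87, RPS27L at -0.75 and RPL26 at -0.70, not called either. The median over the 82 genes was 0.07, with 48 above and 34 below 0, and 0.01 over all genes. The RPS10 call was lost without parental replicate 1 or 2, SDHBKO replicate 1 or 3, or SDHBKOSDHAlow replicate 3 (adjusted p up to 0.426 by edgeR, log2 fold changes from -1.08 to -0.63). Without SDHBKOSDHAlow replicate 2, 4 members were called higher and 5 lower in this comparison, and 11 higher and 8 lower in SDHBKO against parental. In the same fit the calls over all genes rose as well, from 114 to 375 and from 418 to 846.

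Against parental cells, 2 members were called lower in SDHBKOSDHAlow cells, RPL37 among them. RPL37, a large subunit protein with a zinc finger (ENSG00000145592, GRCh38 chr5:40825262-40835222, minus strand), had 3363 and 3361 CPM in parental, 2963, 2042 and 1761 CPM in SDHBKO and 1525, 1379 and 1829 CPM in SDHBKOSDHAlow. The samples of the modified groups were all below the parental ones, and the modified groups overlapped through SDHBKO replicate 3. Its log2 fold change was -1.09 ± 0.22 (SE), adjusted p = 0.041 against parental (edgeR), and -0.58 (SE 0.22, adjusted p = 0.156) for SDHBKO. This call was lost without parental replicate 1 or 2 or SDHBKOSDHAlow replicate 1 (adjusted p up to 0.758 by edgeR). The pseudogene RPL37P2 gave 76.3 and 86.6 CPM in parental, 123, 69.1 and 75.8 CPM in SDHBKO and 21.5, 54.7 and 46.2 CPM in SDHBKOSDHAlow, and none of its differences passed the threshold. No member was called higher (0.225% of all genes were), 7 had an unadjusted p below 0.05 by edgeR and DESeq2 called 2. Of all tested genes 440 were higher at that p, and DESeq2 called 36 higher. Of all genes 0.689% were called lower. Groups did not overlap upward for 18 members (15.2% of all genes) and downward for 10 (15.4%). SDHBKO and SDHBKOSDHAlow cells were both set against the same 2 parental samples, so these comparisons are not independent. The median log2 fold change was 0.03 over the members and 0.02 over all genes.

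**Figure D4:**
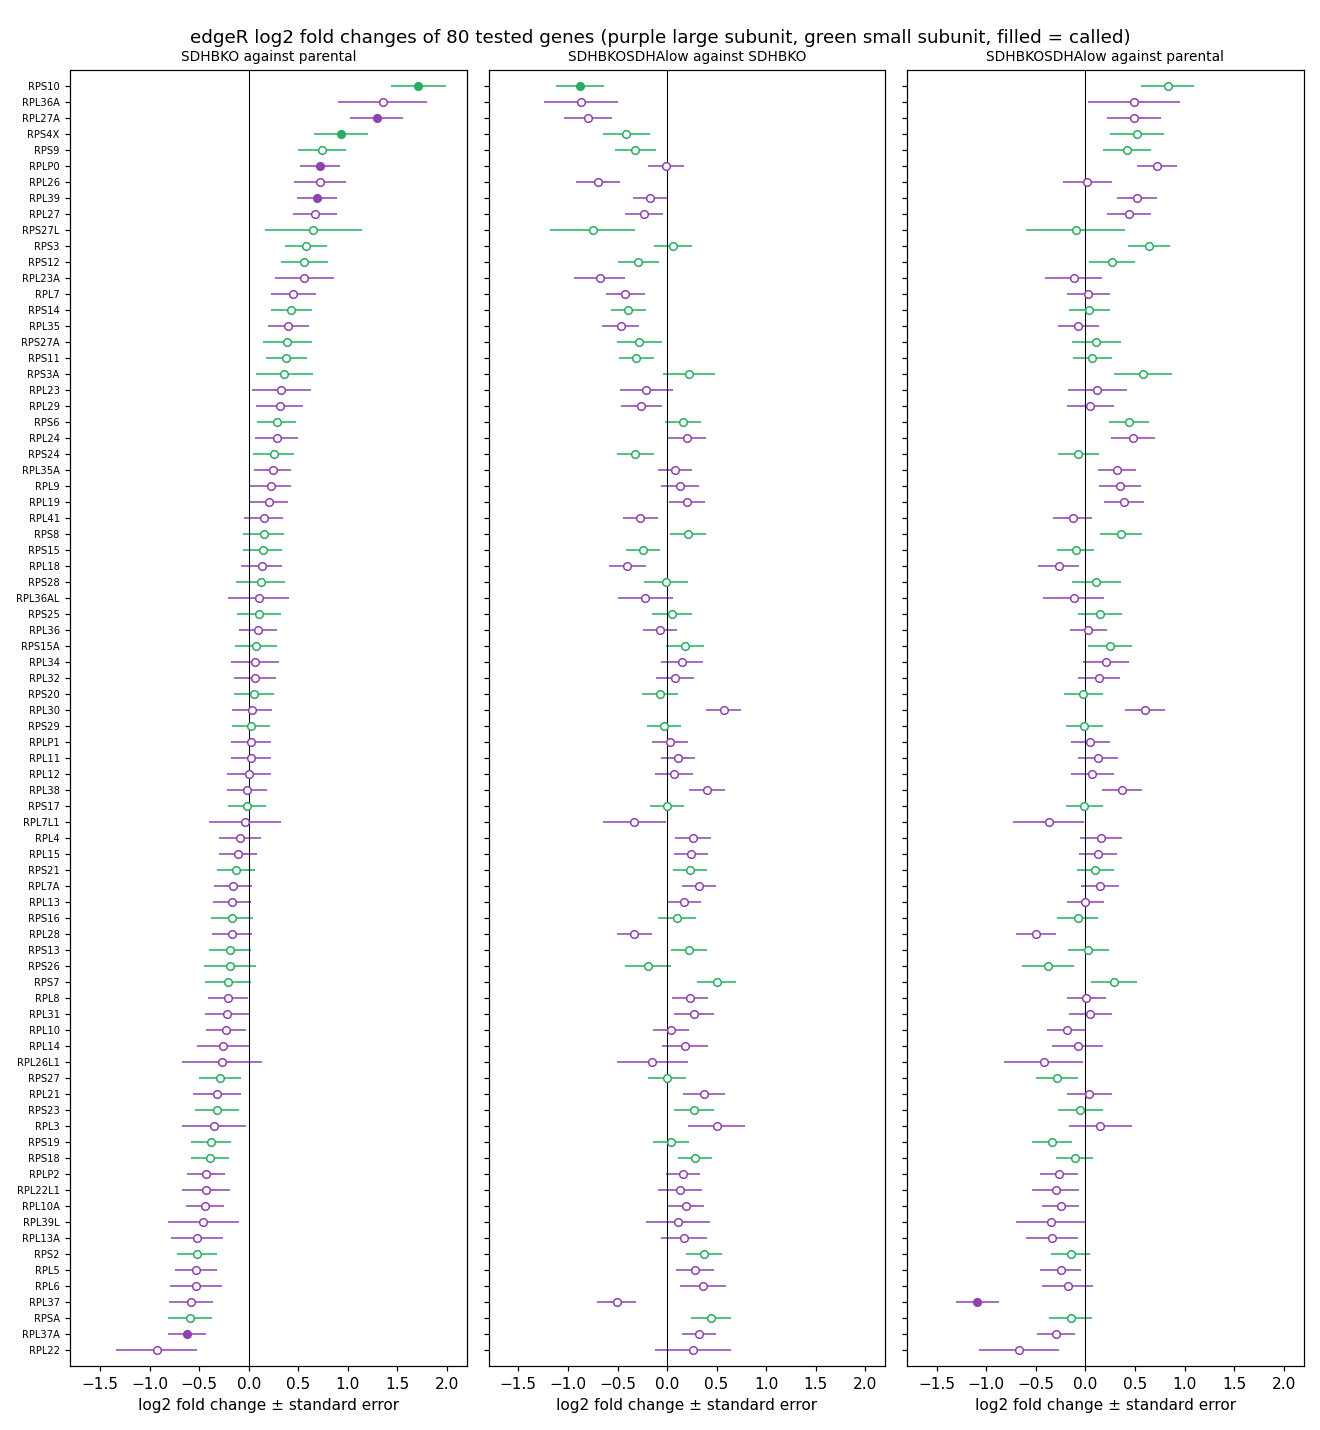
Log2 fold change and standard error of 80 tested genes in the 3 comparisons, in the order of SDHBKO against parental, with large subunit genes in purple, small subunit genes in green and genes called at adjusted p below 0.1 as filled points. The spread is widest in SDHBKO against parental (SD 0.48 over the 82 tested genes).

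The medians of both subunits were close to 0. In SDHBKO against parental the median log2 fold change was -0.01 for the 50 large subunit genes and 0.09 for the 32 small subunit genes, then 0.11 and 0.02 for SDHBKOSDHAlow against SDHBKO, and 0.03 for both against parental. Within the stalk, RPLP1 and RPLP2, the acidic proteins that bind RPLP0 as pairs, had 0.02 and -0.43 in SDHBKO, and RPL12, beside the stalk, had 0, so that RPLP0 was the only member called of 4. Of the proteins that bind MDM2 with the 5S RNA, RPL5 and RPL11 had -0.53 and 0.02, and RPL23 and RPS7, which also bind MDM2, had 0.33 and -0.21, and 0 of 4 were called in any comparison by edgeR. In SDHBKO against parental and in SDHBKOSDHAlow against SDHBKO 1 of those 4 had an unadjusted p below 0.05, and DESeq2 called 0 in any comparison. In SDHBKO, RPL39 was the 1 gene called of 8 tested genes of the exit tunnel, and RPS10 the 1 called of 22 tested genes of Diamond-Blackfan anaemia. All of these lists are small, and 3.14% of all tested genes were called higher and 2.4% lower in that comparison, so nothing particular to a list is read from such counts. RPS6, the substrate of S6 kinase, had 0.28 (SE 0.20, adjusted p = 0.496) in SDHBKO, and RPS19, the gene most often mutated in Diamond-Blackfan anaemia, had -0.38 (SE 0.20, adjusted p = 0.342). RPS27A, whose protein is made as a fusion with ubiquitin, had 0.39 (SE 0.25, adjusted p = 0.46), by edgeR in each case. The 47 tested genes with a tract at the start and the 19 without had the same median, 0.02, in SDHBKO against parental, with 5 and 1 genes called in either direction, against 3.14% higher and 2.4% lower of all genes.

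Several ribosomal proteins have a second gene, and the share of counts on it is given here for each pair. RPL22, an RNA-binding protein of the large subunit, lowers the mRNA of its copy RPL22L1 in other cells. RPL22L1 held 60.7 to 65.4% of the counts of the pair in 6 samples, but 84.5% (95% Wilson interval 76.6 to 90.1) in SDHBKO replicate 3 and 82.6% (76.5 to 87.4) in SDHBKOSDHAlow replicate 2. The intervals of these samples, 1 in each modified group, lay above those of the other samples. They cover counting error only. RPL22 had 84.2 and 64.3 CPM in parental, 48.8, 51.5 and 18.2 CPM in SDHBKO and 70.4, 23.7 and 50.6 CPM in SDHBKOSDHAlow. RPL22L1 had 137.8 and 114.2, then 92.1, 89.9 and 99.3, then 108.5, 112.4 and 85.8 CPM. The high shares thus went with few RPL22 counts (17 and 32), and RPL22L1 was not called in any comparison. RPL36AL held 93.8 and 93.6% of the RPL36A pair in parental, 88.1, 83.9 and 83.2% in SDHBKO and 91.9, 91.2 and 88.9% in SDHBKOSDHAlow cells, with RPL36A at 9 to 32 counts, and 83.4% of all counts on RPL36A and its pseudogenes were on the pseudogenes. RPL39L held 7.44 and 4.91% in parental, 3.11, 3.22 and 2.36% in SDHBKO and 3.63, 3.16 and 3.79% in SDHBKOSDHAlow cells. RPS27L, a copy of RPS27 that p53 can induce, varied most between replicates of all members, with a pooled SD of log2 CPM of 0.89. It had 58.1 and 9.19 CPM in parental, 48.8, 79 and 34.2 CPM in SDHBKO and 42.9, 22.2 and 33 CPM in SDHBKOSDHAlow. Of the 8 samples parental replicate 2 was the lowest and parental replicate 1 the second highest, and RPS27L was not called in SDHBKO (0.65, SE 0.49, adjusted p = 0.527, edgeR). RPL26L1 held 9.01 to 9.76% in parental, 3.48 to 6.41% in SDHBKO and 6.19 to 8.7% in SDHBKOSDHAlow cells, and RPL7L1 7.68 to 16.9% over all samples. Reads that fit both genes of a pair are lost or split in these counts.

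Replicates set limits on single genes. SDHBKOSDHAlow replicate 2 was over 1.5-fold above both other samples of its group for genes including RPL26, RPS27A, RPS28 and RPS3A and below them for RPL13A, RPL22, RPL23, RPL3, RPL7L1 and RPS26. RPL3 had 1085, 374 and 993 CPM there and 722 and 743 CPM in parental cells. SDHBKO replicate 1 stood above for 7 genes, including RPL27A, RPS4X, RPL36A and RPL36AL. RPS28 had 7294, 14049 and 7182 CPM in SDHBKOSDHAlow and 9739, 7769 and 11211 CPM in SDHBKO cells, and RPS14 had 9426, 6710.3 and 8861 CPM in SDHBKO and 5721 and 6616 CPM in parental cells, a difference that was not called (0.43, SE 0.21, adjusted p = 0.287, edgeR).

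Genes that work with the ribosome or share the tract were given from lists of 72 genes, of which 64 were tested. In SDHBKO against parental, 0 of the 64 rose and 5 fell, beside 3.14 and 2.4% of all tested genes. At an unadjusted p below 0.05 by edgeR 2 were higher and 12 lower, and DESeq2 called 0 higher and 4 lower. Of all 7550 tested genes 688 were higher and 630 lower at that p, and DESeq2 called 263 higher and 131 lower. NPM1, a nucleolar chaperone of ribosome assembly, had 413 and 234 CPM in parental, 175, 133 and 143 CPM in SDHBKO and 149, 194 and 125 CPM in SDHBKOSDHAlow and fell by 1.12 on the log2 scale (SE 0.26, adjusted p = 0.0253). ZNF598, the ligase that marks RPS10 with ubiquitin at collided ribosomes, had 160.5 and 178 CPM in parental, 98.9, 102 and 100.4 CPM in SDHBKO and 141, 151 and 197 CPM in SDHBKOSDHAlow. Its log2 fold change was -0.76 (SE 0.23, adjusted p = 0.0857) in SDHBKO and 0.70 (SE 0.21, adjusted p = 0.154) in SDHBKOSDHAlow against SDHBKO. EIF3F, a subunit of initiation factor 3, had -1.12 (SE 0.30, adjusted p = 0.0525), IPO5, an importin that carries ribosomal proteins into the nucleus, -1.28 (SE 0.40, adjusted p = 0.0923), and ZFAS1, a noncoding host of small nucleolar RNAs, -1.42 (SE 0.36, adjusted p = 0.0363). FAU, which encodes a further ribosomal protein as a fusion, had 0.01, and RACK1, a small subunit scaffold, had 0.39. EIF4EBP1, an inhibitor of cap-dependent translation, had 149 and 148 CPM in parental, 241, 179 and 234 CPM in SDHBKO and 135, 124 and 116 CPM in SDHBKOSDHAlow and was called lower in SDHBKOSDHAlow against SDHBKO (-0.80, SE 0.20, adjusted p = 0.0687). EEF1A1, GAS5 and LARP1 had 0.04, -0.81 and -0.03 in SDHBKO, not called, and MYC had at most 16 counts. Against parental cells NPM1 was called lower in SDHBKOSDHAlow (-1.05, SE 0.25, adjusted p = 0.0837). All p-values here are from edgeR's quasi-likelihood test.

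The values of neighbouring genes were set beside those of the called members. Within 2 Mb of RPS10 the median log2 fold change of 43 tested genes was 0.02 in SDHBKO against parental, and within 2 Mb of RPL27A that of 8 genes was -0.55, with 2 called lower. The median was 0 for 32 genes around RPLP0 and -0.25 for 11 around RPL37A. On chromosome X, which holds RPS4X, RPL39 and RPL36A, it was 0.1 over 238 genes. Within 2 Mb it was 0.27 for 15 genes around RPS4X, 0.16 for 12 around RPL39 and 0.28 for 12 around RPL36A. Across the 82 genes the rank correlation of the log2 fold change with the GC content of the transcript end was -0.08 and with transcript length -0.15 in SDHBKO against parental. Over 7539 tested genes the same correlations were 0.13 and -0.15. Genes are not independent replicates, and the points share libraries.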

How the data were processed

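RNA of 8 samples (2 parental, 3 SDHBKO, 3 SDHBKOSDHAlow, grouped by the labels) was sequenced with QuantSeq 3′ mRNA-seq. The authors trimmed reads (Trimmomatic), discarded those of ribosomal and mitochondrial RNA (Sortmerna), aligned the others to GRCh38 (annotation release 87) with STAR 2.5.2b, which also counted them per gene, and deposited these raw counts. They also deposited a normalized signal (each count over a DESeq2 size factor). In it SDHBKO replicate 1 holds the scaled counts of replicate 3 and the reverse, and it entered no test. STAR counts uniquely mapped reads, so reads shared with pseudogenes, paralogs or read-through genes are lost or split. The strand setting of the counting is not given in the sources used here, so reads of overlapping antisense genes could not be told apart. The 4 rows that name no gene were left out of library sizes, and 0 columns belonged to other samples.

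Genes with a mean normalized count above 5 were fitted with edgeR 4.0.16 (R 4.3.3), TMM factors and the quasi-likelihood test, with all 8 samples and 3 groups in 1 fit. P-values were adjusted by Benjamini-Hochberg over all tested genes in each comparison and called below 0.1, the threshold of the study. The SE is the size of the log2 fold change divided by the square root of F. DESeq2 1.42.0 was run beside it. Positions came from GENCODE release 44 and promoters from RefSeq (GRCh38.p14), which held 70 of the 87 genes. Shares of counts have 95% Wilson intervals that cover counting error only. The fit was tested on simulated data.

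Members and gene lists were chosen with earlier results of these data known. Genes named are those called, the 5 largest fold changes in each direction in SDHBKO against parental and SDHBKOSDHAlow against SDHBKO, paralog pairs, RPLP0, RPLP1, RPLP2, RPSA, RPL5, RPL11, RPS6, RPS19, RPS27A, the 5 members of most counts, those below the filter, the 3 of largest spread, SDHA and SDHB, called genes of the other lists, and FAU, RACK1, EEF1A1, GAS5, MYC and LARP1. Some of the genes this rule names are not reported here. Other names (RPL27, RPS3, RPL12, RPL23, members named with a replicate that stands apart, pseudogenes and read-through genes) were chosen after their values were seen. The alternatives tried were pseudogene counts added, TMM without ribosomal protein genes, DESeq2, DESeq2 size factors in edgeR, other filters, a stricter threshold (0.05), a fit on the compared groups alone, a replicate block and leaving out each sample. A GC offset was added after seeing the data.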

Additional observations from a re-analysis of the deposited data

How the results depend on the processing

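For SDHBKO against parental, SDHBKOSDHAlow against SDHBKO and SDHBKOSDHAlow against parental in this order, the numbers of ribosomal protein genes called were 7, 1 and 2. They were 14, 3 and 4 with DESeq2, 17, 0 and 1 in fits of only the groups compared, 3, 0 and 1 at an adjusted p of 0.05, and 15, 2 and 1 with the GC offset, which was chosen after seeing the data. Without the filter on low counts the last 2 comparisons gave 2 and 4, and with pseudogene counts added the last gave 1. Over all genes 418, 114 and 69 were called. Fits of only the groups compared gave 777, 64 and 7, an adjusted p of 0.05 gave 171, 64 and 13, and the last comparison gave 152 without the filter. Of the other gene lists 5, 1 and 1 were called, with 0 and 0 in the last 2 comparisons in fits of only the groups compared, 2, 0 and 0 at an adjusted p of 0.05, and 2 in the last without the filter. Deviations from the group mean correlated at -0.07 on average between same-numbered samples (-0.27 to 0.09 over 7 pairs). Between samples of different numbers it was 0.03 (-0.14 to 0.27 over 14 pairs). With 2 or 3 samples in a group these values cannot tell whether samples were paired. With the replicate block, 3, 0 and 0 ribosomal protein genes, 199, 59 and 12 of all genes and 2, 0 and 0 of the other lists were called. Leaving out 1 sample at a time gave 0 to 19, 0 to 9 and 0 to 4 ribosomal protein genes, 0 to 846, 39 to 375 and 4 to 173 of all genes, and 0 to 8, 0 to 5 and 0 to 3 of the other lists. The lowest counts in SDHBKO against parental came without parental replicate 1, and the highest without SDHBKOSDHAlow replicate 2. The share of counts on ribosomal protein genes in parental, SDHBKO and SDHBKOSDHAlow cells was 20.1, 19 and 19.4% without the 10 genes of most counts in the total. Without RPL37A, the member of most counts, it was 15.4, 15.7 and 15.6% in the same order, and with pseudogenes added 18.3, 17.8 and 18%. The SDHBKO mean, lowest of the 3 groups in the main result, was thus the highest without RPL37A, with its samples from 14.2 to 17.5%. The median log2 fold change of the members lay on both sides of 0 over the alternatives in all 3 comparisons, from -0.073 to 0.076, -0.003 to 0.136 and -0.001 to 0.058. No named gene reversed a call. The depth (773042 to 1427141 reads on genes) and the 2 parental samples limit the genes of few counts, such as RPL36A.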

Other observations

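EEF1G, a subunit of elongation factor 1 that is expressed in nearly all cells and was in the list of translation genes, had 0 counts in every sample, as did the read-through genes RPS10-NUDT3, RPL17-C18orf32 and RPL36A-HNRNPH2. It was named after its values were seen. Of 11 tested chaperones and loading factors of ribosomal proteins, 0 were called in any comparison by edgeR, with 1 at an unadjusted p below 0.05 in SDHBKO against parental, 0 in SDHBKOSDHAlow against SDHBKO and 2 in SDHBKOSDHAlow against parental, and 0 called by DESeq2. In the first of these 8 of the 11 were above 0, with a median of 0.37 on the log2 scale, beside 3766 of all 7550 tested genes above 0 and a median of 0. Of 10 tested noncoding genes that host small nucleolar RNAs, 8 were below 0 in the same comparison, with a median of -0.40, and ZFAS1 was the one called. For some of these genes parental replicate 1 lay well above replicate 2. SNHG6 had 107 and 36.7 CPM in parental and 23, 51.5 and 38.4 CPM in SDHBKO cells. GAS5 had 59.2 and 32.8, then 20.3, 25.2 and 33.1 CPM, and ZFAS1 97.9 and 55.1, then 23, 36.2 and 26.7 CPM. The parental samples were close for SNHG1 (39.8 and 39.4 CPM). SNHG6 and SNHG1 were named after their values were seen. These counts of signs are descriptions of small lists.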
